A study of Homo sapiens with 6 samples.

Results

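The zinc finger genes of chromosome 19 were examined in ChIP-seq region lists of KDM3B and of H3K9me2 in HCT116 cells, an established human colorectal cancer line. The genes were chosen by name and place, as all protein-coding genes on chromosome 19 of hg19 whose symbol starts with ZNF and a digit. This gave 249 ZNF genes, beside 1231 other protein-coding genes of the same chromosome and 20162 protein-coding genes in all. Names and positions were taken from GENCODE release 44, as lifted to hg19. The study sequenced HCT116/Scrsh cells, which carry a scrambled control shRNA, and HCT116/ABsh-1 cells, in which the histone demethylases KDM3A and KDM3B are both depleted by shRNA. They are called Scrsh cells and ABsh-1 cells from here on. The sample labels describe the treatment as siRNA, and call these populations Con and KD. Both are the same line in the same medium, and nothing in the lists measures the knockdown itself. There was 1 library per antibody and population, so no difference between the populations has a replicate check or a test.

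Each ChIP library is represented by 1 list of regions that the authors called. There were 17638 KDM3B regions in Scrsh cells and 8046 in ABsh-1 cells, and 11645 and 88855 H3K9me2 regions, respectively. On chromosome 19 the same lists held 987, 526, 236 and 6731 regions. A region is a run of 100-bp windows in which ChIP reads exceeded input reads, so each list says where signal was called and not how much there was. The number of reads per library is unknown, and a gene without a region may still have had signal that was not called. Each share of genes is followed by its 95% interval by Wilson's method. It reflects the counting of genes alone, and neighbouring genes can share a region.

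C2H2 zinc finger proteins are the largest family of human transcription factors, and chromosome 19 carries long tandem clusters of their genes. Each finger folds around a zinc ion held by a pair of cysteines and a pair of histidines, and a row of fingers reads a DNA sequence. In many members the fingers follow a KRAB domain, which binds the corepressor TRIM28 (KAP1). TRIM28 brings the methyltransferase SETDB1 and heterochromatin protein HP1, which spread H3K9 methylation over transposons and over the 3′ ends of zinc finger genes themselves. That 3′ mark is H3K9me3, whereas the mark measured here, H3K9me2, is laid down mainly by EHMT1 and EHMT2 (GLP and G9a). KDM3B removes H3K9me2.

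The sequences below show both kinds of place at which the regions of ZNF genes were found, from hg19 and written 5′ to 3′ on the strand of the gene. The first 3 are coding stretches of 240 bases from the last exons with the largest share covered by H3K9me2 regions in ABsh-1 cells. ZNF91, printed for contrast, is a long KRAB zinc finger gene that had no region in any list. Capitals mark the codons of the zinc-binding cysteines and histidines. ZNF837 lies at chr19:58879161-58879400 (minus strand), ZNF358 at chr19:7584702-7584941 (plus), ZNF296 at chr19:45575444-45575683 (minus) and ZNF91 at chr19:23544749-23544988 (minus).
ZNF837: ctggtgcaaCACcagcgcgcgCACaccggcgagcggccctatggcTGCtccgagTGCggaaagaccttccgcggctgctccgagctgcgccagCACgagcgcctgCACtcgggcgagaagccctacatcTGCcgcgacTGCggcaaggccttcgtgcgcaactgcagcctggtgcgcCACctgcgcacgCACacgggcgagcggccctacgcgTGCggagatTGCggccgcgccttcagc
ZNF358: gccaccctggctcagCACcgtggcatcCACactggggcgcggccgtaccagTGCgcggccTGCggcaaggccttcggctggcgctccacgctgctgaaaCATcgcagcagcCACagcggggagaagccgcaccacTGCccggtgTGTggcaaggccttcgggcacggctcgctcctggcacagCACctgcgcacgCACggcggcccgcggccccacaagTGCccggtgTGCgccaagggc
ZNF296: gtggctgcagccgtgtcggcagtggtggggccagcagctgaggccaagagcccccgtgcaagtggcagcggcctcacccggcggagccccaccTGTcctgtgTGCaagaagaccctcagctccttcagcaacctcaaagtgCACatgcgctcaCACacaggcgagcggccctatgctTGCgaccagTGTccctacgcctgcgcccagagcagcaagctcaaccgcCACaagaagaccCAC
ZNF91: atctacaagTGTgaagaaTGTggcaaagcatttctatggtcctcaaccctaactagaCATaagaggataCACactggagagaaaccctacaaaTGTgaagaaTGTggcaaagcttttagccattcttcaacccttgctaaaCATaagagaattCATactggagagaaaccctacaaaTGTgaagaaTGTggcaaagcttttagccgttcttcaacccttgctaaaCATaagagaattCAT
The stretches of ZNF837, ZNF358 and ZNF91 hold 12 zinc-binding codons each and that of ZNF296 holds 8, but the bases around them differ. The stretches of ZNF837, ZNF358 and ZNF296 had a GC content of 71.2%, 72.9% and 65.4% with 33, 25 and 13 CpGs, and that of ZNF91 had 39.2% with 1 CpG.

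The other place was the promoter. ZNF524 had the most bases under KDM3B regions in Scrsh cells, and ZNF460, ZNF497, ZNF557, ZNF575 and ZNF576 were level after it. With ties ordered by symbol, ZNF524, ZNF460 and ZNF497 were taken, and in the last pair the region reached into the 250 bases upstream of the start site. Capitals mark CpG dinucleotides. ZNF460 is shown at chr19:57791603-57791852 (plus strand), inside a KDM3B region of 600 bp. ZNF497 is shown at chr19:58874215-58874367 (minus strand), inside another of 600 bp, from the base above its outermost annotated start.
ZNF460: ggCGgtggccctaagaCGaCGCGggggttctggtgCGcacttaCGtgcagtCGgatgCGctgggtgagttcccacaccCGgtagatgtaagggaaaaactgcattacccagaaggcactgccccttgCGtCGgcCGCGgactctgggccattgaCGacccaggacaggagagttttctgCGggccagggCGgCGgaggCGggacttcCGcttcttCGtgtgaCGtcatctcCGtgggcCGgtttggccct
ZNF497: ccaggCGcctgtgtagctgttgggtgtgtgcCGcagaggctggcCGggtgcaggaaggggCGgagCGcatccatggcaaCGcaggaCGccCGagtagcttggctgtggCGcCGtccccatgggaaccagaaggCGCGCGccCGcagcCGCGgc
These stretches held 23 CpGs in 250 bases and 16 in 153 bases, with a GC content of 64% and 71.9%. In ZNF524 the KDM3B region was centred at -854 bp and did not reach this stretch.

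ZNF genes held regions less often than the other genes of chromosome 19 in each list. This held near a start site, in the gene body and in the last exon, where most counts were small. A window of 5 kb on either side of every annotated transcription start site (TSS) was searched first. A KDM3B region of Scrsh cells lay in it for 57 ZNF genes, 22.9% (interval 18.1 to 28.5), for 45.4% of the other chromosome 19 genes (42.6 to 48.2), and for 35.0% of all protein-coding genes. In ABsh-1 cells the count was 27 ZNF genes, 10.8% (7.56 to 15.3), against 30% and 19.2%. H3K9me2 regions of Scrsh cells were rare at ZNF genes, with 3 of 249, 1.2% (0.411 to 3.48), against 9.50% of the other genes and 10.2% of all. In ABsh-1 cells there were 62, 24.9% (19.9 to 30.6), against 83.1% (80.9 to 85.1) and 49.3%. The intervals of ZNF genes and of the other chromosome 19 genes did not overlap in any of the 4 lists.

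The gene bodies gave the same order. KDM3B regions lay in 50 ZNF gene bodies in Scrsh cells (20.1%, against 36.1% of the other genes and 34.3% of all) and in 19 in ABsh-1 cells (7.63%, against 24.2% and 19.1%). H3K9me2 regions lay in 4 in Scrsh cells (1.61%, against 9.75% and 15.9%) and in 58 in ABsh-1 cells (23.3%, against 79.4% and 51.2%). ZNF gene bodies are not shorter, with a median of 25932 bp against 13781 bp for the other genes. In all, 137 of the 249 ZNF genes had no region of any list in the windows or the gene body, against 106 of the 1231 other genes.

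The last exon codes for most of the fingers. The 248 members whose coding sequence could be translated held 3110 fingers, and 98.0% of these were in the last exon of the canonical transcript. The median last exon was 3293 bp in ZNF genes and 725 bp in the others. It nevertheless held an H3K9me2 region of ABsh-1 cells in 17 ZNF genes, 6.83% (4.31 to 10.7), against 40.5% of the others (37.8 to 43.3) and 19.5% of all. KDM3B regions lay in 2 last exons in Scrsh cells, 0.803% (0.221 to 2.88). The share was 3.74% (2.81 to 4.95) in the others and 2.44% in all. In ABsh-1 cells there was 1, 0.402% (0.0709 to 2.24), against 2.03% (1.38 to 2.98) and 1.23%. An H3K9me2 region of Scrsh cells lay in 1, 0.402% (0.0709 to 2.24), against 1.71% (1.12 to 2.59) and 2.05%. These genes were ZNF77 and ZNF473, ZNF121, and ZNF555, named here because the counts are so low. In these lists the intervals of ZNF genes and of the others overlapped, unlike those for H3K9me2 in ABsh-1 cells.

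**Figure D1:**
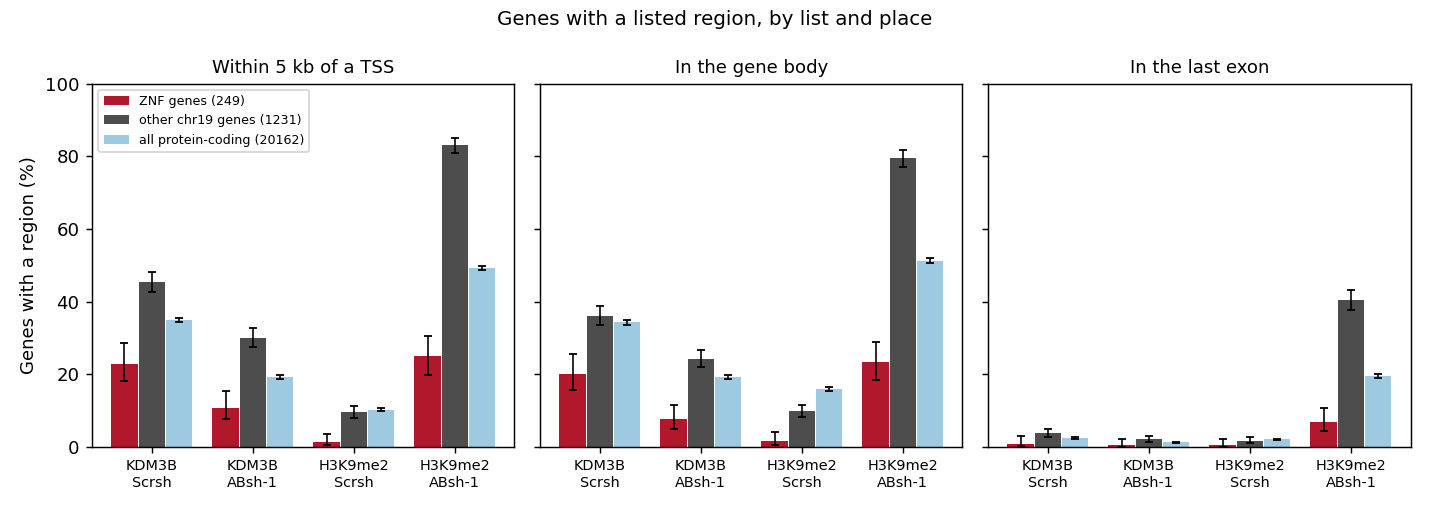
Share of genes (%) with a region of each list within 5 kb of a TSS, in the gene body and in the last exon, for the 249 ZNF genes, the 1231 other genes of chromosome 19 and all 20162 protein-coding genes. Bars are shares and error bars Wilson 95% intervals. The ZNF genes have the lowest bar in each set, and the gap in percentage points is widest for H3K9me2 in ABsh-1 cells, at 24.9% against 83.1% near a TSS.

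Most KDM3B regions of ZNF genes lay at the promoter. There were 63 distinct KDM3B regions of Scrsh cells in the TSS windows of ZNF genes. Measured from the nearest base, 53 (84.1%) reached within 500 bp of any annotated TSS of a ZNF gene. The average cover reached 10.3% of bases in the last 100 bp before the canonical TSS. In the other genes it reached at most 8.75%, and their highest bin lay 100 bp further upstream. Within 500 bp of the TSS the means were 4.37% and 4.82%, while over the whole 10 kb they were 0.535% and 1.09%. Counted within 500 bp of the canonical TSS alone, 49 ZNF genes (19.7%) and 276 other genes (22.4%) had a region in Scrsh cells, a smaller gap than in the wider windows. The 1 kb around the TSS held a median of 59 CpGs in ZNF genes and 61 in the others.

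**Figure D2:**
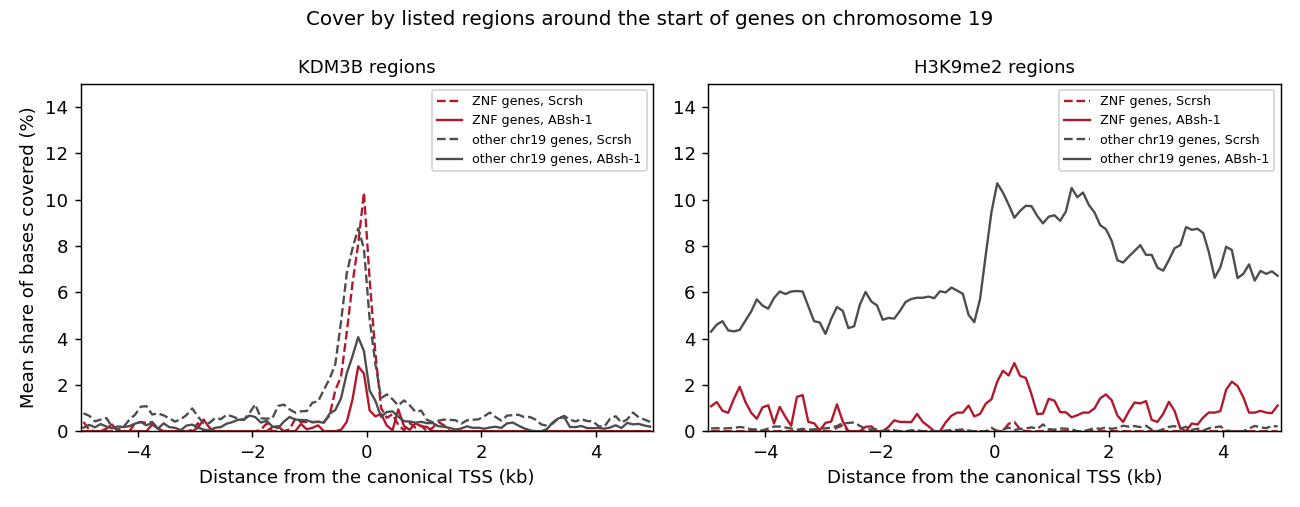
Mean share of bases covered (%) by KDM3B regions (left) and H3K9me2 regions (right) by distance from the canonical TSS (kb, 100-bp bins), for ZNF genes and the other chromosome 19 genes. Dashed lines are Scrsh cells and solid lines ABsh-1 cells. The KDM3B peaks of both gene groups are alike in Scrsh cells (10.3% and 8.75%) and lower in ABsh-1 cells (2.80% and 4.06%), whereas the H3K9me2 cover of ZNF genes in ABsh-1 cells is at or below 2.94%, against up to 10.7%.

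By part of the gene, KDM3B regions of Scrsh cells covered 42.7 bases per kb of first exon in ZNF genes and 26.9 in the others. In the 5 kb upstream the values were 7.87 and 14.3 bases per kb. In introns they were 0.383 and 2.98, and in last exons 0.255 and 5.57. In ABsh-1 cells the first exons of ZNF genes had 7.17 bases per kb and those of the other genes 9.85.

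KDM3B was called at the windows of 40 ZNF genes in Scrsh cells only (16.1%), of 17 in both populations and of 10 in ABsh-1 cells only. As a share of all genes, those called in Scrsh cells only were 21.7% of the other chromosome 19 genes and 20.0% of all genes. Those called in ABsh-1 cells only were 4.02% of the ZNF genes, 6.26% of the other chromosome 19 genes and 4.24% of all genes. Among the 57 ZNF genes with KDM3B in Scrsh cells, 70.2% (57.3 to 80.5) had none in ABsh-1 cells, against 47.8% (43.7 to 51.9) of 559 other chromosome 19 genes and 57.2% (56.0 to 58.3) of 7049 genes in all. The interval of the ZNF genes lay above that of the other chromosome 19 genes and overlapped that of all genes. The KDM3B list of ABsh-1 cells was the shorter of the pair. When the longer list was cut to the same number of regions by score, 33 ZNF genes had a KDM3B region in Scrsh cells and 27 in ABsh-1 cells. The other chromosome 19 genes went the other way, with 332 and 369.

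The 8 ZNF genes with the most bases under KDM3B regions in Scrsh cells were chosen for that cover and set beside the shorter list of ABsh-1 cells, so lower values there are a description only. ZNF524, a gene of 4 fingers, had 900 bases covered within 5 kb of a TSS in Scrsh cells and 0 in ABsh-1 cells. ZNF460 and ZNF557, both with a KRAB-like stretch, each had 600 and 0. ZNF497 had 600 and 100, and its remaining 100-bp region was centred at -133 bp from the TSS. ZNF575 had 600 and 200. The Scrsh regions of ZNF460 and ZNF557 overlapped the first exon and were centred at -253 bp and -114 bp. In ZNF524 the main region was also within 5 kb of a TSS of the neighbour FIZ1, and ZNF557 shared its region with MBD3L3.

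Several ZNF genes had a KDM3B region in their windows in both populations, though not always at the same place. Of the genes named here, ZNF576 had the KDM3B region of highest score, 600 bp at -347 bp and at percentile 99.4 of its list in Scrsh cells, and 400 bases were covered in ABsh-1 cells. Its window is shared with IRGQ and SRRM5. ZNF559 and the read-through gene ZNF559-ZNF177, which start from the same promoter, had 400 bases in Scrsh cells and 300 in ABsh-1 cells. ZNF547 had 400 and 200. In ZNF576, ZNF559 and ZNF547 a region of ABsh-1 cells overlapped that of Scrsh cells. ZNF383 and ZNF585B, neighbours that share their regions, had 500 and 200, in adjoining regions that did not overlap. ZNF567 had 100 bases in an intron in Scrsh cells, 18736 bp from the TSS, and 200 at -114 bp in ABsh-1 cells, so these regions were far apart.

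H3K9me2 in Scrsh cells was called near a TSS of only ZNF132, ZNF543 and ZNF574. In the gene body and 5 kb upstream of the canonical TSS, ZNF536, ZNF132, ZNF543, ZNF541 and ZNF555 had any. ZNF536, a regulator of neuronal differentiation with the longest body of those named (488696 bp), had 400 covered bases in Scrsh cells and 2100 in ABsh-1 cells. ZNF132 had 200 and 400, on its first exon at 320 and 220 bp from the TSS. ZNF543 had 100 and 200, upstream at -2690 and -2740 bp. ZNF541, a germ cell factor, had 100 and 3600. ZNF555 had 200 in its last exon in Scrsh cells and none there in ABsh-1 cells, where a different 200-bp region lay in an intron.

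H3K9me2 in ABsh-1 cells reached the windows of 59 ZNF genes that had none in Scrsh cells (23.7%), against 73.9% of the other chromosome 19 genes and 40.2% of all genes. The other 3 ZNF genes had a region in both lists, and none lost it. The H3K9me2 list of ABsh-1 cells is much the longer of the pair, and its length moves with this count. With the list cut to the 11645 regions of highest score, 8 ZNF genes (3.21%) had a region near a TSS, against 371 other genes (30.1%). The regions near ZNF genes were spread out, with 39 of 119 (32.8%) reaching within 500 bp of an annotated TSS of a ZNF gene. They covered 54.7 bases per kb of internal exons in ZNF genes and 238 in the others, and 2.63 against 53.6 in introns.

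The 8 ZNF genes that H3K9me2 covered most in ABsh-1 cells had no KRAB-like stretch, and 6 of them had no H3K9me2 region in Scrsh cells. ZNF541 had 3600 bases in its body and 5 kb upstream, of which 1500 lay in 1 region wholly within the coding part of exon 5. ZNF653 had 2700, with 1100 in 1 region over exons 4 to 6. ZNF628, with 16 fingers, had 2400, and 900 of these were in the last exon. ZNF536 had 2100, with an 800-bp region wholly in the coding part of exon 2. ZNF497 had 2017, ZNF787 had 1969, ZNF837 had 1900 and ZNF358 had 1700. In Scrsh cells ZNF541 had 100, ZNF536 had 400 and the others had 0. KDM3B had been called in Scrsh cells at ZNF653, ZNF628, ZNF536 and ZNF497, with 100, 500, 300 and 600 bases, and not at the other 4.

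H3K9me2 and KDM3B calls were then set side by side. Of the 40 ZNF genes with KDM3B in Scrsh cells only, 15 had H3K9me2 in ABsh-1 cells, 37.5% (24.2 to 53.0). Of the 17 with KDM3B in both, 7 did, 41.2% (21.6 to 64), and of the 182 with KDM3B in neither, 37 did, 20.3% (15.1 to 26.8). The first and last intervals overlap. The median GC content of the windows was 46.9% in the first and 44.7% in the last of these groups, and its part in the difference was not tested. In the other genes of chromosome 19 the shares with KDM3B in Scrsh cells only, in both and in neither were 89.9%, 90.4% and 76.1%. Over all protein-coding genes they were closer together, at 49.7%, 58.2% and 46.6%. Among genes with KDM3B in ABsh-1 cells only, 3 of the 10 ZNF genes had H3K9me2 in ABsh-1 cells (10.8 to 60.3). The share was 85.7% in the other chromosome 19 genes and 53.1% in all genes. This was below the share with KDM3B in Scrsh cells only in both chromosome 19 groups, and above it over all genes. The intervals of these classes overlapped in each gene set.

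In the last exons the covered share ranged from 3.99% to 70.6% among the 17 ZNF genes with H3K9me2 in ABsh-1 cells. ZNF837 had 1228 of 1739 bases covered (70.6%), in a pair of regions. ZNF358 had 1100 of 1821 (60.4%), in 1 region that was wholly coding. ZNF296, known from pluripotent cells, had 600 of 1081 (55.5%), also wholly coding. ZNF446 and ZNF444, which carry a SCAN domain, had 52.9% and 44.3%. In ZNF444 the region lay in the non-coding end of the exon. ZNF497 had 30.8% and ZNF787 the least, 3.99%. The remaining 10 were ZNF414, ZNF574, ZNF526, ZNF576, ZNF628, ZNF579, ZNF524, ZNF865, ZNF784 and ZNF581, with 4.30% to 28.2%. None of these last exons had a KDM3B or H3K9me2 region in Scrsh cells.

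These 17 last exons were of a different composition. Their median GC content was 65.1%, against 40.2% in the 232 without, with 58.3 against 9.16 CpGs per kb and 7 against 13 fingers. Among ZNF genes, 0 of 208 last exons under 45% GC had a region, 0 of 15 between 45% and 50%, 2 of 3 between 50% and 55%, and 15 of 23 (65.2%, 44.9 to 81.2) at 55% or more. In the other genes of chromosome 19 the shares were 1.65%, 11.6%, 28.9% and 55.9%. At the highest GC the intervals of both groups overlapped. Since the authors kept reads of 50 bases with a unique position, the share of unique 50-base words was also counted. It had a median of 96.2% in the last exons of ZNF genes and 100% in those of the others, and 1 ZNF last exon was under 50%. Words were matched exactly, so a word within 2 mismatches of another place counted as unique. The mapping by the authors allowed up to 2 mismatches, so these shares can be too high for near-identical exons. The part of GC content and uniqueness in these counts was not tested.

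**Figure D3:**
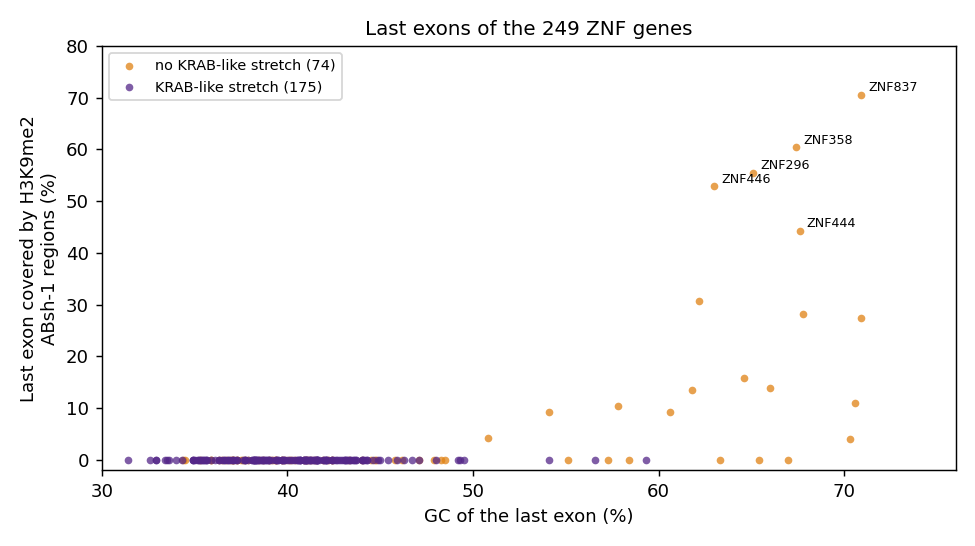
Share of the last exon (%) covered by H3K9me2 regions of ABsh-1 cells against the GC content (%) of that exon, 1 point per ZNF gene, coloured by the KRAB-like stretch. Points above 33% are named. The points above 0 lie to the right of 50% GC and lack the stretch.

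Shares also rose with GC content near the TSS. By GC content of the windows, H3K9me2 of ABsh-1 cells was found at 10.9% of ZNF genes under 45%, 23% from 45% to 50%, 71.4% from 50% to 55% and 13 of 13 (77.2 to 100) at 55% or more. The other genes had 22.0%, 53.7%, 89.1% and 97.8%. In the bin from 45% to 50%, which held 87 ZNF genes and 147 others, the intervals did not overlap (15.4 to 32.9 against 45.7 to 61.6). Within this bin the median GC content was 46.7% in ZNF genes and 48.2% in the others, so it was not matched. The part of this difference was not tested. For KDM3B in Scrsh cells the ZNF genes had 15.6%, 24.1%, 38.1% and 61.5% and the others 12.1%, 29.3%, 49.6% and 52.3%, with overlapping intervals in each bin. Only 34 ZNF genes had windows of 50% or more, against 993 of the others.

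**Figure D4:**
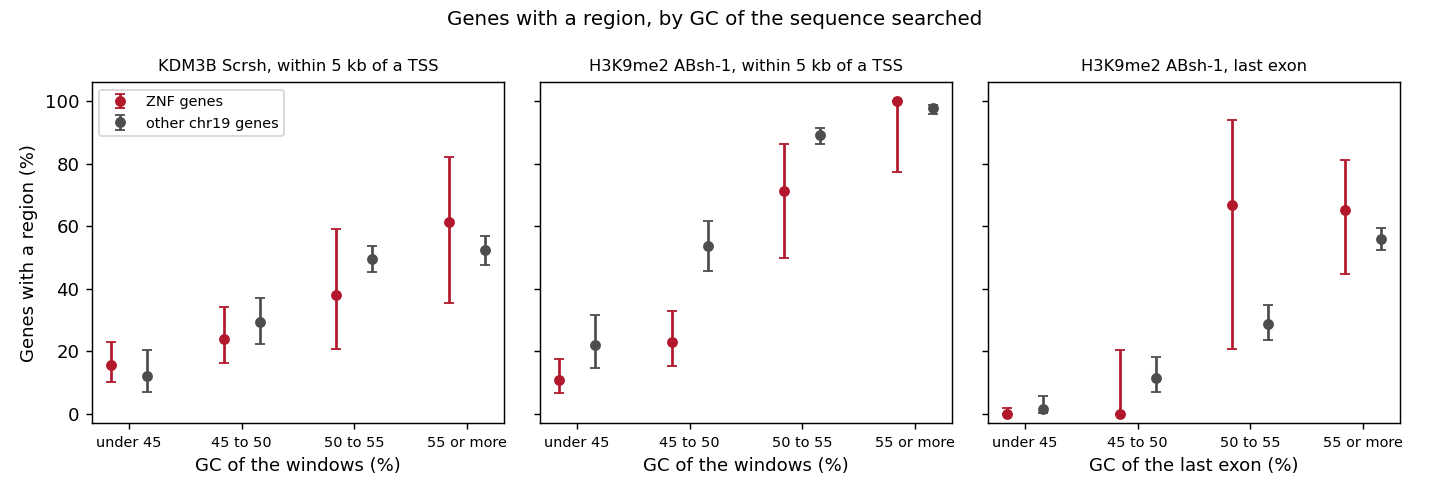
Share of genes (%) with a region by GC content of the sequence searched, for ZNF genes and other chromosome 19 genes, with Wilson 95% intervals. Panels show KDM3B in Scrsh cells and H3K9me2 in ABsh-1 cells near a TSS, and H3K9me2 in ABsh-1 cells in the last exon. Near a TSS shares rise with GC in both groups, and the ZNF genes lie below the others for H3K9me2 at 45% to 50% (23% against 53.7%). In that bin the median GC is 46.7% in ZNF genes and 48.2% in the others. In the last exon the ZNF genes have a region only at 50% GC or more.

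The ZNF genes were then split by a KRAB-like stretch, the residues F-X-D/E-V-A/T followed by V, I, L or M within the first 200 of the protein. It was found in 175 members and not in 74. The pattern finds letters, and some members without it have a KRAB domain that is spelled differently. KDM3B in Scrsh cells was called near a TSS of 33 of the 175 (18.9%, 13.8 to 25.3) and of 24 of the 74 (32.4%, 22.9 to 43.7). H3K9me2 in ABsh-1 cells was called at 27 (15.4%, 10.8 to 21.5) and 35 (47.3%, 36.3 to 58.5), so these intervals did not overlap. In the last exon H3K9me2 of ABsh-1 cells was at 0 of 175 (up to 2.15%) and 17 of 74 (23%, 14.9 to 33.7). Over all protein-coding genes these shares were 35.0%, 49.3% and 19.5%, each inside the interval of the members without the stretch and above that of the members with it. Cover by H3K9me2 of ABsh-1 cells did not have this order in every part of the gene. First exons had 50.9 bases per kb in members with the stretch and 24.2 in those without. In the 5 kb upstream the values were 2.52 and 15.5, in internal exons 1.67 and 156, and in introns 0.565 and 7.95. A second pattern found the stretch in 201 members. By it the last exons gave 0 of 201 and 17 of 48 (35.4%), and H3K9me2 of ABsh-1 cells near a TSS 17.9% (13.2 to 23.8) and 54.2% (40.3 to 67.4). KDM3B in Scrsh cells then gave 18.9% (14.1 to 24.9) and 39.6% (27 to 53.7), so its intervals overlapped by the first pattern and not by the second.

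The stretch and the GC content moved together. No member with the stretch had TSS windows of 55% GC or more, and 3 had a last exon of 50% or more, with no H3K9me2 region of ABsh-1 cells in any of the 3. Among members whose windows had 45% to 50% GC, H3K9me2 in ABsh-1 cells was found at 16 of 70 with the stretch (22.9%) and at 4 of 17 without it (23.5%). Under 45% the shares were 8.16% and 20.0%. From 50% to 55% they were 3 of 7 (42.9%, 15.8 to 75.0) and 12 of 14 (85.7%, 60.1 to 96.0), the widest gap of these bins. The intervals overlapped in all 3 bins. Whether the stretch or the composition goes with the mark cannot be told apart in this set.

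The number of fingers ranged from 0 to 36, with 36 in ZNF208 and a median of 12. Of the 14 members with at most 5 fingers, 11 had H3K9me2 in ABsh-1 cells near a TSS (78.6%, 52.4 to 92.4), against 21.9% of 73 with 6 to 10, 19% of 105 with 11 to 15 and 26.8% of 56 with 16 or more. The share was 83.1% in the other chromosome 19 genes and 49.3% in all protein-coding genes. The median GC content of the last exon was 56.7% in the class with fewest fingers and 39.8% in that with most. The KRAB-like stretch was found in 2 of the 14, 47 of the 73, 81 of the 105 and 44 of the 56. The part of composition and of the stretch was not tested.

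Along the chromosome, 224 ZNF genes fell into 13 clusters, runs of at least 5 members with neighbouring starts at most 250 kb apart. The clusters took up 20.3% of the assembled chromosome. They held 7.60% of its KDM3B regions in Scrsh cells, 5.89% in ABsh-1 cells, 5.51% of its H3K9me2 regions in Scrsh cells and 2.79% in ABsh-1 cells. As a density, H3K9me2 in ABsh-1 cells came to 16.6 regions per Mb inside clusters and 147 outside, and KDM3B in Scrsh cells to 6.62 and 20.5.

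Genes of other kinds inside the cluster spans were also counted. The 72 other genes inside the cluster spans had H3K9me2 of ABsh-1 cells near a TSS in 43.1% (32.3 to 54.6), against 85.6% of the 1159 other genes outside them and 49.3% of all protein-coding genes, which lies inside their interval. The median GC content of their windows was 47.6%, against 53.9% outside. The ZNF genes had 22.8% (17.8 to 28.7) inside clusters and 44% (26.7 to 62.9) outside, where there were 25.

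The clusters differed among themselves. In the adjacent clusters 5 (ZNF737 to ZNF429) and 6 (ZNF100 to ZNF91), 0 of 25 members had a region of any list near a TSS. These spans had a GC content of 40.4% and 41.2%, and 90.5% and 88.2% of their 50-base words were unique. Cluster 10 (ZNF577 to ZNF331) was the second largest, with 39 members, of which 1 had KDM3B in Scrsh cells and 7 had H3K9me2 in ABsh-1 cells. Cluster 13 (ZNF264 to ZNF446), the largest, had 13 and 14 among its 43 members. Cluster 11 (ZNF628 to ZNF581) was the opposite case. Its 7 members all had H3K9me2 in ABsh-1 cells, 6 had KDM3B in Scrsh cells and 2 in ABsh-1 cells, none had the KRAB-like stretch, and the span had a GC content of 54.5%. The 5 genes of other kinds in this span also all had H3K9me2 in ABsh-1 cells, so it was not particular to the ZNF genes there.

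**Figure D5:**
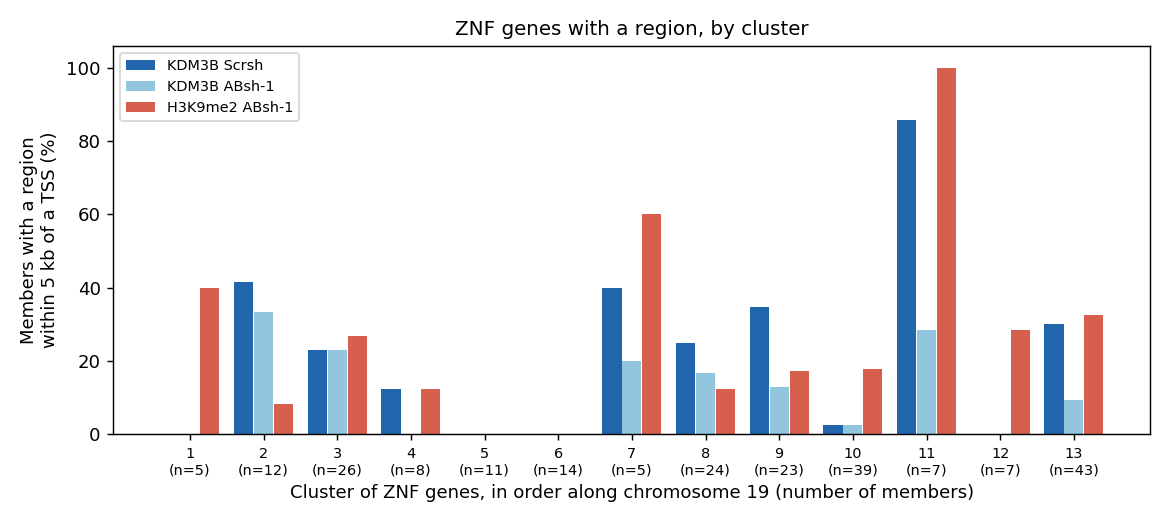
Share of members (%) with a region within 5 kb of a TSS in each of the 13 clusters, numbered along the chromosome, for KDM3B in both populations and H3K9me2 in ABsh-1 cells. H3K9me2 in Scrsh cells is left out because only 2 clustered members had it. Clusters 5 and 6 have no bar, and cluster 11 reaches 7 of 7 for H3K9me2.

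Several ZNF genes with known roles had no region at all. ZNF274, which brings SETDB1 to the 3′ ends of other zinc finger genes, had none, nor had ZNF91 and ZNF93, which silence SVA and LINE-1 retrotransposons. ZNF43, ZNF568 and ZNF382 had none either. Their last exons had a GC content from 34.9% in ZNF568 to 43.4% in ZNF274. In ZNF91, 77.5% of the 50-base words of that exon were unique. ZNF146, which is made of fingers alone, and ZNF180 each had a 200-bp KDM3B region on the first exon in Scrsh cells, at -8 and 74 bp from the TSS, and none in ABsh-1 cells. ZNF331, an imprinted gene, had 3 H3K9me2 regions in ABsh-1 cells and no other, of 400, 100 and 200 bp, the first at -299 bp from the TSS.

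A list of 25 genes of KRAB zinc finger repression and H3K9 methylation was counted in the same way. KDM3B was called within 5 kb of a TSS of 11 in Scrsh cells (44%, background 35.0%) and 10 in ABsh-1 cells (40%, background 19.2%). H3K9me2 was called at 1 in Scrsh cells (4%, background 10.2%) and at 10 in ABsh-1 cells (40%, background 49.3%). CBX5, which codes for HP1 alpha, had 600 bases under KDM3B regions in Scrsh cells and 300 in ABsh-1 cells. UHRF1, which reads H3K9 methylation for DNA methylation upkeep, had 600 and 200. Other genes of the list went the other way, with 0 and 100 in ATF7IP, CBX1 and SMARCAD1 and 0 and 200 in WIZ. TRIM28 and SETDB1 had no KDM3B region, and TRIM28 had 100 bases of H3K9me2 in ABsh-1 cells. The widest H3K9me2 cover in ABsh-1 cells was at WIZ, a zinc finger partner of the G9a complex, with 5300 bases against 100 in Scrsh cells, and at EHMT1, with 5157 against 0. DNMT1, the maintenance DNA methyltransferase, had 2600 against 0.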

How the data were processed

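Per the labels and the study's methods, the authors mapped reads of 50 bases to hg19 with Bowtie (version not given in the sources used here), kept those with a single position and at most 2 mismatches, reduced duplicates to 1 read, and tested each 100-bp window for an excess of ChIP reads over input reads under a Poisson distribution. The authors deposited 1 region list per ChIP library, with positions and a whole-number score whose meaning is not given in the sources used here. The score only ranked regions within a list. The 2 inputs were not analysed here. Depth is unknown.

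Regions were joined to GENCODE release 44 genes on hg19. TSS windows joined 5 kb on either side of every TSS of a gene's transcripts, any overlap of 1 bp counted, and the last exon was that of the canonical transcript, or of the longest coding one for 4 members without it. Fingers (C-X2-4-C-X12-H-X3-5-H) and the KRAB-like stretch were counted in translated hg19 coding sequence, and ZNF274 could not be translated whole. Counting was tested on simulated data. No test was made. Members, lists and named genes were chosen with earlier results of these data known. Genes named were the 8 with most H3K9me2 cover in HCT116/ABsh-1, 8 with most KDM3B cover and the 5 with H3K9me2 cover of the body or 5 kb upstream in HCT116/Scrsh, 6 with the most covered last exons, 6 with KDM3B near a TSS in both populations, 10 known from the literature, and any making up a small count. Alternatives changed windows, overlap, score limits, last exons, members and cluster gaps. Python 3.11.15, numpy 2.4.6 and matplotlib 3.10.9 were used.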

Additional observations from a re-analysis of the deposited data

How the results depend on the processing

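In all 104 comparisons of the ZNF genes with the other genes of chromosome 19, over the reported and the alternative settings, the ZNF genes had the lower share. The settings recount the same lists and genes, so they are not separate checks, and many counts in last exons and for H3K9me2 in Scrsh were very small. Counts that moved by over 1.5 times are given next, as ZNF genes and, where it moved, as other genes. With only the 50% of each list that had the highest score, near a TSS there were 36 and 358 genes with KDM3B in Scrsh, 11 and 160 in ABsh-1, 64 other genes with H3K9me2 in Scrsh and 34 ZNF genes with it in ABsh-1. In gene bodies there were 28 and 283, 5 and 118, 65 other genes and 30 ZNF genes. In last exons there were 0 and 25, 0 and 10, and 12 other genes with H3K9me2 in Scrsh. With both lists of an antibody cut to equal length, KDM3B in Scrsh had 33 and 332 near a TSS, 26 and 261 in bodies, and 0 and 24 in last exons, and H3K9me2 in ABsh-1 had 8 and 371, 8 and 371, and 4 and 114. A 500-bp window at the canonical TSS, chosen after seeing the data, gave 276 other genes with KDM3B in Scrsh, 16 and 141 in ABsh-1, and 1 and 8, then 21 and 321, with H3K9me2. H3K9me2 in Scrsh near a TSS had 1 and 66 with 2 kb, 75 other genes with the canonical TSS, and 6 members once other zinc finger symbols (ZFP, ZSCAN, ZKSCAN, ZIM, ZIK) were added. The coding part of the last exon gave 1 and 15, 0 and 8, and 0 ZNF genes for H3K9me2 in Scrsh. KDM3B in Scrsh lay in 1 ZNF last exon by its centre or by 100 bp of overlap. Fewer regions or bases entered each of these counts by construction, except the 6.

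Read-through genes, other last exons and a 500-kb gap (10 clusters of 235 members) moved no count by over 1.5 times. Nor did leaving out regions near a non-ZNF gene, an alternative chosen after seeing the data. Regions shared only between ZNF genes were kept in it. No paired analysis was possible because each condition had 1 library. Depth is unknown, so missing regions say little about low signal.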
